A study of Mus musculus with 4 samples.

Results

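The TRPM genes, Trpm1 to Trpm8, encode the melastatin-like branch of the transient receptor potential cation channels. Accessibility at their loci was read from 109 of 119609 ATAC-seq intervals, namely those centred in one of the 8 gene bodies or within 20 kb of one (GENCODE vM1 on mm9). All 109 passed the filter on low counts. The family was chosen by its measured +HOT to -HOT changes, those at the Trpm5 and Trpm8 starts being already known from these libraries, so the changes below are described and are not offered as tests of the family.

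ATAC-seq marks open chromatin by where a transposase can insert sequencing adapters. It was run on iMEF2, a single mouse embryo fibroblast line in which loxP sites flank exon 4 of both Ash2l alleles, which expresses Cre-ER and which was immortalized with an shRNA against p19Arf delivered by a retrovirus that also carried Blasticidin resistance. The +HOT cells received 5 nM 4-hydroxytamoxifen for 7 days, which activates Cre-ER, and the -HOT cells received the ethanol vehicle. Ash2l is a core subunit of the complexes that methylate lysine 4 of histone H3. Each condition had 2 technical replicates of the one line, so the errors measure the spread between libraries and not between cultures. HOT-treated cells with intact Ash2l were not analysed here, and the sources used here do not name the promoter driving Cre-ER. A pool of cells was measured, so a site open in more cells and a site more open in each cell cannot be told apart.

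Depth in intervals was 28117900 and 21356440 reads for +HOT and 37151163 and 30411621 reads for -HOT. Levels are given as CPM, the count scaled to the TMM-adjusted library total, listed for replicate 1 and then replicate 2. Changes are log2 fold changes of +HOT over -HOT with their standard error (SE), and a site is called gained or lost when its adjusted p-value in the fit over all 119603 tested sites was under 0.05 and its log2 fold change was beyond 0.40 in either direction. The Ash2l promoter site held 30.9 and 25.3 CPM in +HOT and 35.6 and 31.6 CPM in -HOT. Since 0 intervals lay over exon 4, these counts do not check the deletion. Promoter sites were present for 11 of 11 fibroblast markers, at 13.2 to 79.1 CPM in -HOT, and 5 of them were lost upon HOT treatment, where 23.4% of the promoter sites of all 16691 genes with one were lost and 5.08% gained. Sites were present for 3 of 8 melanocyte markers, with Tyr, Tyrp1, Dct, Sox10 and Kit lacking one, for 4 of the 7 blood markers found in the annotation, with Ptprc, Gata1 and Cd3e lacking one, and for 6 of 8 epithelial markers. Of these, 1 melanocyte marker was gained, and 4 of 4 blood and 4 of 6 epithelial markers with a site were lost. Their -HOT levels, at 1.86 to 33.0 CPM (melanocyte), 6.04 to 24.0 CPM (blood) and 1.01 to 15.0 CPM (epithelial), overlapped the fibroblast range. The part of such markers in the results below was not tested. A promoter site can lie off the start, as that of the melanocyte marker Pmel, centred at -1455 bp. Genes can also share one, as the 16691 genes had 14999 separate sites.

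TRPM channels assemble from several subunits and pass sodium, calcium or magnesium across the plasma membrane. Trpm6 and Trpm7 are channels fused to a protein kinase and serve magnesium balance, Trpm6 mainly in kidney and gut epithelium and Trpm7 in nearly every cell. Trpm4 and Trpm5 open when cytosolic calcium rises and carry monovalent cations, and Trpm5 is best known from taste receptor cells. Trpm2 is gated by ADP-ribose and is studied in immune cells, Trpm1 serves retinal bipolar cells and melanocytes, Trpm3 is a heat and neurosteroid sensor of sensory neurons, and Trpm8 is the cold and menthol sensor.

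The sequences at the starts differed most in their CG dinucleotides, and 4 of the 8 are shown because they span that range and include both genes whose start site gained strongly. Each line gives the 200 bases before an annotated coding start, read on the gene's strand from mm9, with CG dinucleotides in capitals. The start is the most upstream one within 3000 bp of the site nearest to a start of the gene. They lie at chr2:126701967-126702166 (Trpm7, minus strand), chr19:18824273-18824472 (Trpm6, plus strand), chr7:150280548-150280747 (Trpm5, minus strand) and chr1:90215288-90215487 (Trpm8, plus strand).
Trpm7: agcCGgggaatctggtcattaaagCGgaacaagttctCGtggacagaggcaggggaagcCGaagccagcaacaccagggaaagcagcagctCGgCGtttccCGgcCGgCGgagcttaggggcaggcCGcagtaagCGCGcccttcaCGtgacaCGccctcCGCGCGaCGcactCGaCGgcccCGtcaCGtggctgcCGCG
Trpm6: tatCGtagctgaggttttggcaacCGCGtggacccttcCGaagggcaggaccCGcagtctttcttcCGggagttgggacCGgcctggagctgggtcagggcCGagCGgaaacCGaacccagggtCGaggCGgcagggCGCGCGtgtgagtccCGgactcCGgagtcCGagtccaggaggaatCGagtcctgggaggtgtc
Trpm5: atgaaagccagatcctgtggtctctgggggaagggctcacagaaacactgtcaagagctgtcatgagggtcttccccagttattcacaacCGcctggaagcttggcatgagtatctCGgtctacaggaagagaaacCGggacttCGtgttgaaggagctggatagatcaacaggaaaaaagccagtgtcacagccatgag
Trpm8: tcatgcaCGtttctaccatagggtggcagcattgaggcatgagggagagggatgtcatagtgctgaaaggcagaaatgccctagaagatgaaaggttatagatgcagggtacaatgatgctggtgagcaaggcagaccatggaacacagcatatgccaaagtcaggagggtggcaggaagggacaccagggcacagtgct
The Trpm7 window held 24 CG dinucleotides and that of Trpm6 19, while Trpm5 had 4 and Trpm8 had 1. The windows of Trpm3, Trpm4, Trpm2 and Trpm1 held 15, 14, 9 and 1. Over 45993 annotated coding starts scanned in the same way the median was 8.

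Of the 109 TRPM sites, 38 were gained and 14 were lost upon Ash2l loss, against 21.3% gained and 14.2% lost among all tested sites. Because these same changes led to the choice of the family, nothing is read from that difference. The median log2 fold change of the members was 0.10, and that of all tested sites was 0.00. Without the 17 Trpm8 sites, 26 of 92 were gained and the median was 0.05. Gained sites were present at 7 of 8 genes and lost sites at 7 of 8, the exceptions being Trpm2 without a gained site and Trpm8 without a lost one. At Trpm2 1 of 5 sites was higher at an unadjusted p under 0.05 and DESeq2 called 0 gained. At Trpm8 1 of 17 was lower at an unadjusted p under 0.05 and DESeq2 called 0 lost. Weak sites gained more often than strong ones, in the family as in the whole table. Among sites below the median mean level of all sites, 21 of 44 members were gained, against 31.0% of all sites there, and above it 17 of 65 members were gained, against 11.5%.

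**Figure D1:**
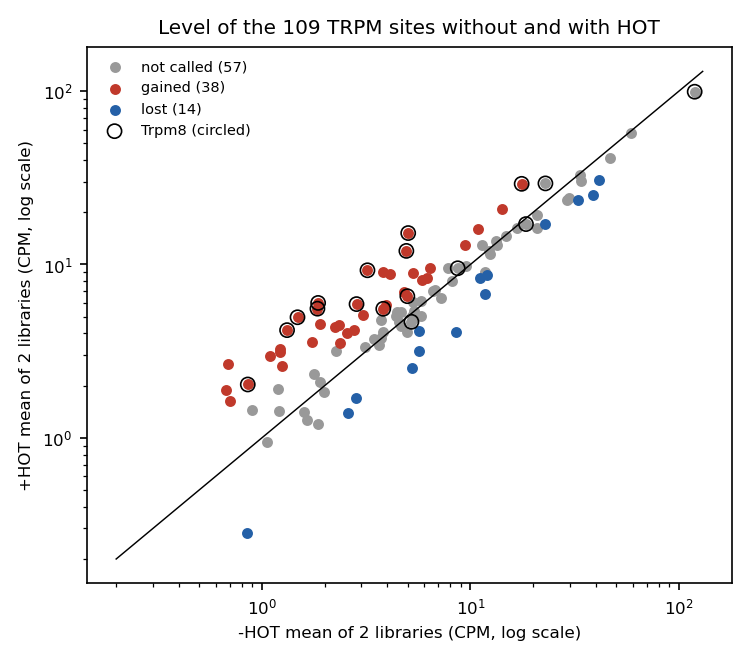
Mean level of each of the 109 TRPM sites in -HOT (horizontal axis) and +HOT (vertical axis), in CPM on log scales, with each point a mean of 2 libraries, the line marking equal levels, colours giving the call and open circles the 17 Trpm8 sites. The 38 gained sites lie above the line, and 12 of them belong to Trpm8.

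The sites nearest to a coding start of each gene were compared per kb of site, as intervals differ in length. Among these 8 sites Trpm7 was the most open in -HOT cells, at 16.1 and 15.4 CPM per kb, followed by Trpm4 at 15.0 and 14.6, Trpm6 at 12.6 and 12.2 and Trpm1 at 9.66 and 8.69. The libraries of these neighbours in the order did not overlap. The other 4 formed a lower group whose order was not resolved, with Trpm3 at 7.46 and 4.35 CPM per kb, Trpm2 at 4.90 and 3.87, Trpm8 at 3.10 and 5.08 and Trpm5 at 3.46 and 3.67. The sites of Trpm6 and Trpm1 were not at the start itself, as their centres lay 2749 bp upstream and 2151 bp downstream, and the Trpm8 site lay 91 bp before an internal start 41.2 kb into the annotated gene. The site at the annotated beginning of Trpm8, shared with the start of Hjurp and far from a coding start of Trpm8, is not in this order and held 63.2 CPM per kb in -HOT. Upon Ash2l loss the levels of Trpm8 reached 10.7 and 15.2 CPM per kb and those of Trpm5 8.18 and 8.75, both above all their -HOT libraries. All 3 start sites called gained, those of Trpm3, Trpm5 and Trpm8, came from the lower group. That group was ranked by the -HOT values that also enter the change, so nothing is read from this. When all tested sites were split into 10 equal groups by mean level, those holding the Trpm3, Trpm5 and Trpm8 sites had 24.6%, 17.4% and 30.9% gained. The reported edgeR fit called 0 of the 8 lost, with 1, that of Trpm6, lower at an unadjusted p under 0.05, and DESeq2 called 2 gained and 0 lost. The Trpm6 site was called lost in 3 of the 11 alternative fits. Among the promoter sites of 16691 genes, 5.08% were gained and 23.4% were lost.

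**Figure D2:**
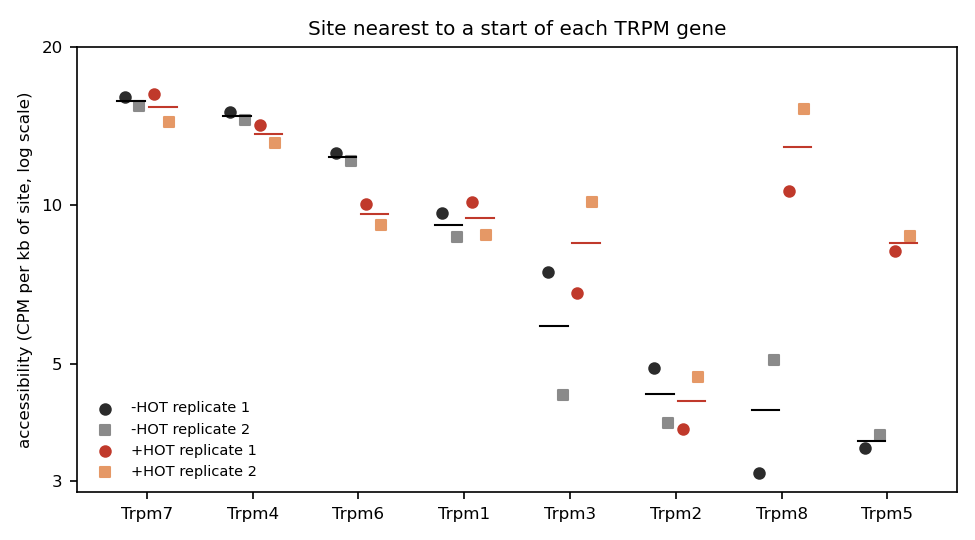
Accessibility of the site nearest to a start of each TRPM gene, in CPM per kb of site on a log scale, with 1 point per library and bars at the mean of 2 libraries in -HOT (black) and +HOT (red). The +HOT points of Trpm8 and Trpm5 lie above their -HOT points, those of Trpm4 and Trpm6 lie below, and those of Trpm7, Trpm1, Trpm2 and Trpm3 overlap.

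Among the channel kinases, the Trpm7 start site (chr2:126700647-126702775, over a coding exon) held 34.7 and 30.7 CPM in +HOT and 34.3 and 32.9 CPM in -HOT. The groups overlapped, and the log2 fold change was -0.04 (SE 0.10). The other sites were weaker. Over all 8 sites of the locus, the start site included, 2 were gained, 3 lost and 3 not called, whereas DESeq2 called 0 gained and 1 lost. Among all tested sites 21.3% were gained and 14.2% lost. The largest change was an intronic site 60.3 kb from the gene start (chr2:126641170-126642097), which held 3.12 and 5.01 CPM in +HOT and 8.47 and 8.50 CPM in -HOT. Both +HOT libraries lay below both -HOT libraries there, and the site was lost at a log2 fold change of -1.09 (SE 0.16). The other lost sites, 13.7 and 83.1 kb from the start, were at -0.75 (SE 0.25) and -0.45 (SE 0.17), called in 10 and 7 of 12 fits (the reported one and 11 alternatives). The former was not called without -HOT replicate 1 (-0.34), and the latter without +HOT replicate 1 (-0.51), +HOT replicate 2 (-0.40) or -HOT replicate 2 (-0.35). An intronic site 80.1 kb from the start was gained at 0.59 (SE 0.20), and a site at the start of the neighbouring Usp50 was gained at 0.47 (SE 0.14), in 7 and 8 of 12 fits. The former was not called without +HOT replicate 2 (0.55), -HOT replicate 1 (0.57) or -HOT replicate 2 (0.61), and the latter without -HOT replicate 2 (0.41).

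At Trpm6 the site upstream of the start (chr19:18820878-18822571) held 17.0 and 15.6 CPM in +HOT and 21.3 and 20.6 CPM in -HOT. The +HOT libraries were lower without overlap, and the log2 fold change of -0.36 (SE 0.10) did not reach the fold minimum. It was past it and called lost with TMM from distal sites (-0.44), after GC-trend removal (-0.42) and without +HOT replicate 1 (-0.43). The strongest site, in an intron 140.8 kb from the start, held 31.3 and 29.4 CPM against 34.5 and 33.6 CPM, with a log2 fold change of -0.16 (SE 0.10). In contrast, 4 of the 15 sites, all intronic, were gained, against 21.3% of all tested sites. DESeq2 called 2 gained and 0 lost at the locus. The 2 largest gains, 100.5 and 123.4 kb from the start, each had a log2 fold change of 1.24 (SE 0.35 and 0.22), and the former was not called without -HOT replicate 1 (0.85). The second of them held 4.49 and 4.61 CPM in +HOT and 2.14 and 1.67 CPM in -HOT. The other gained sites, 3.67 and 85.2 kb from the start, were at 0.43 (SE 0.14) and 0.63 (SE 0.21), each called in 7 of 12 fits. The former was not called without +HOT replicate 2 (0.39) or -HOT replicate 1 (0.40), and the latter without +HOT replicate 2 (0.28), -HOT replicate 1 (0.64) or -HOT replicate 2 (0.61). The only lost Trpm6 site, 9.24 kb upstream, was near the floor, at 0.25 and 0.32 CPM against 0.75 and 0.94 CPM, with a log2 fold change of -1.58 (SE 0.49). DESeq2 did not call it, and without +HOT replicate 1 it was not called either (-1.40).

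Of the calcium-activated channels, Trpm4 kept an open start. Its start site, which also lies within 3000 bp of the start of Hrc, held 20.1 and 18.6 CPM in +HOT and 21.3 and 20.6 CPM in -HOT, with a log2 fold change of -0.11 (SE 0.10). The +HOT libraries were lower there without overlap, and the site was not called. The strongest site of the locus, 6.57 kb upstream within Ppfia3, held 32.0 and 29.3 CPM against 41.3 and 41.5 CPM and was lost at -0.43 (SE 0.10). Its change lies close to the fold minimum and was not called without +HOT replicate 2 (-0.37). A site just downstream of the gene (chr7:52554809-52556086) held 21.1 and 20.8 CPM in +HOT and 13.8 and 14.6 CPM in -HOT. It was gained at 0.57 (SE 0.11), the largest called change at Trpm4. The second lost site of the locus was intronic, 20.5 kb from the start, with 16.6 and 17.5 CPM against 23.9 and 21.7 CPM (-0.42, SE 0.10). It was called in 8 of 12 fits and not without +HOT replicate 1 (-0.39) or -HOT replicate 1 (-0.36).

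Trpm5 was accessible at low level before and gained at its start. The start site (chr7:150280400-150281467, centred 386 bp upstream) held 8.74 and 9.35 CPM in +HOT and 3.69 and 3.92 CPM in -HOT. All +HOT values were above all -HOT values, and the log2 fold change was 1.25 (SE 0.15). Of the 4 nearest sites 3 were gained as well, against 21.3% of all tested sites. The site 6.09 kb upstream was gained at 0.75 (SE 0.15), that 16.3 kb upstream, in an intron of Kcnq1, at 1.03 (SE 0.27), and that centred in a coding exon 7.78 kb into the gene at 0.46 (SE 0.12), the last not being called without +HOT replicate 1 (0.33). The site 13.5 kb upstream held 1.23 and 1.63 CPM against 1.22 and 1.21 CPM and was not called (0.22, SE 0.32). Towards and beyond the gene end the values were mixed. The strongest site of the locus, at the start of Tssc4, held 40.6 and 42.1 CPM in +HOT and 48.4 and 44.5 CPM in -HOT and was not called (-0.17, SE 0.09), while the site at the start of Cd81, a tetraspanin gene, was lost at -0.63 (SE 0.10). Between them lay sites at -0.13 (SE 0.17) and 0.38 (SE 0.18), neither called, the latter being gained in 2 of 12 fits. The first site beyond the 20 kb limit, 24.45 kb downstream, was gained at 0.78.

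Trpm2 had 5 sites. The site over its start held 4.49 and 5.64 CPM in +HOT and 5.86 and 4.62 CPM in -HOT, and the log2 fold change was -0.07 (SE 0.17) with overlapping groups. Both lost sites of the locus lay at starts of other genes. The site at the start of 1810043G02Rik held 24.4 and 22.4 CPM against 33.4 and 32.0 CPM (-0.48, SE 0.10), and that at the start of Lrrc3 held 6.25 and 7.31 CPM against 12.0 and 11.3 CPM (-0.79, SE 0.13). The single site inside Trpm2 away from its start was at 0.69 (SE 0.34) and was not called.

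At Trpm1, 11 of 15 sites were not called, 1 was gained and 3 were lost. Over all tested sites the shares were 21.3% gained and 14.2% lost. The site nearest to a start held 14.7 and 12.7 CPM in +HOT and 14.0 and 12.6 CPM in -HOT, with a log2 fold change of 0.05 (SE 0.11). The strongest site lay beyond the gene at the start of Mtmr10 and held 26.0 and 22.2 CPM against 31.4 and 28.1 CPM (-0.30, SE 0.10). The only gained site was intronic, 112.2 kb from the gene start (chr7:71410266-71411613), at 9.06 and 8.49 CPM in +HOT and 3.92 and 4.28 CPM in -HOT. Its log2 fold change was 1.10 (SE 0.15), and the groups did not overlap. Of the 3 lost sites, the largest change was -0.90 (SE 0.27) at a site 53.0 kb from the start, with 1.37 and 1.40 CPM against 2.44 and 2.75 CPM. The other 2, 86.0 and 96.1 kb from the start, were at -0.47 (SE 0.12) and -0.42 (SE 0.13), and the latter stood close to the fold minimum. Neither was called without +HOT replicate 1 (-0.31 and -0.35), nor was the latter without -HOT replicate 2 (-0.31). In the order given, the 3 lost sites were called in 11, 10 and 7 of 12 fits. DESeq2 called 1 site gained and 1 lost at Trpm1.

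Trpm1 and Trpm3 each host a microRNA, Mir211 and Mir204, and the pair is shown because both carry one seed. The mature sequences from RefSeq (GRCm38.p6) are given with bases 2 to 8, the seed, in capitals.
miR-211-5p: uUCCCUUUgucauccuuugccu
miR-204-5p: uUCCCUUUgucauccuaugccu
The lost Trpm1 site 53.0 kb from the start was the member nearest to Mir211, with a gap of 508 bp to the hairpin. The member nearest to Mir204 was 12.8 kb away and was gained at 1.35 (SE 0.26), with 3.05 and 3.21 CPM in +HOT and 1.36 and 1.07 CPM in -HOT. Both sites were named for their place beside the hairpins after their values had been seen.

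Trpm3, at 850.8 kb the longest gene of the family, held 34 sites, of which 14 were gained, 2 lost and 18 not called. DESeq2 called 11 gained and 2 lost. The start site (chr19:22213249-22214063) was called gained at 0.48 (SE 0.17), but its libraries overlapped, with 5.55 and 8.26 CPM in +HOT and 6.08 and 3.55 CPM in -HOT. It was not called by DESeq2, nor without +HOT replicate 2 (0.19) or without -HOT replicate 2 (0.16). The largest gain was an intronic site 98.2 kb from the start (chr19:22311517-22312073), which held 2.04 and 3.30 CPM in +HOT and 0.61 and 0.77 CPM in -HOT. Its log2 fold change was 1.93 (SE 0.31), a 3.82-fold change and the largest of the 109 sites. Further gains over 1 on the log2 scale lay in introns 161.9, 292.1, 413.1, 565.0 and 624.6 kb from the start, at 1.42, 1.42, 1.08, 1.51 and 1.35, all from -HOT means between 0.67 and 1.74 CPM. Gains at more open sites were smaller, as 40.2 kb from the start, where 14.7 and 17.4 CPM in +HOT stood against 10.2 and 11.5 CPM in -HOT (0.56, SE 0.11). Against 21.3% gained and 14.2% lost among all tested sites, 10 of the 14 sites up to the midpoint of the gene were gained. Beyond the midpoint 4 of 20 were gained and 2 were lost. The sites also differed in level, with a median of 3.25 CPM in -HOT before the midpoint and 4.94 CPM after it; the part of level in this split was not tested. The strongest Trpm3 site, 777.5 kb from the start, held 58.6 and 55.7 CPM in +HOT and 57.6 and 60.0 CPM in -HOT (-0.04, SE 0.09). The 2 lost sites lay on either side of it, 757.4 and 784.1 kb from the start, with log2 fold changes of -0.84 (SE 0.18) and -1.05 (SE 0.20). Between the former and the strongest site lay a site 766.1 kb from the start that was not called (-0.04, SE 0.18).

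**Figure D3:**
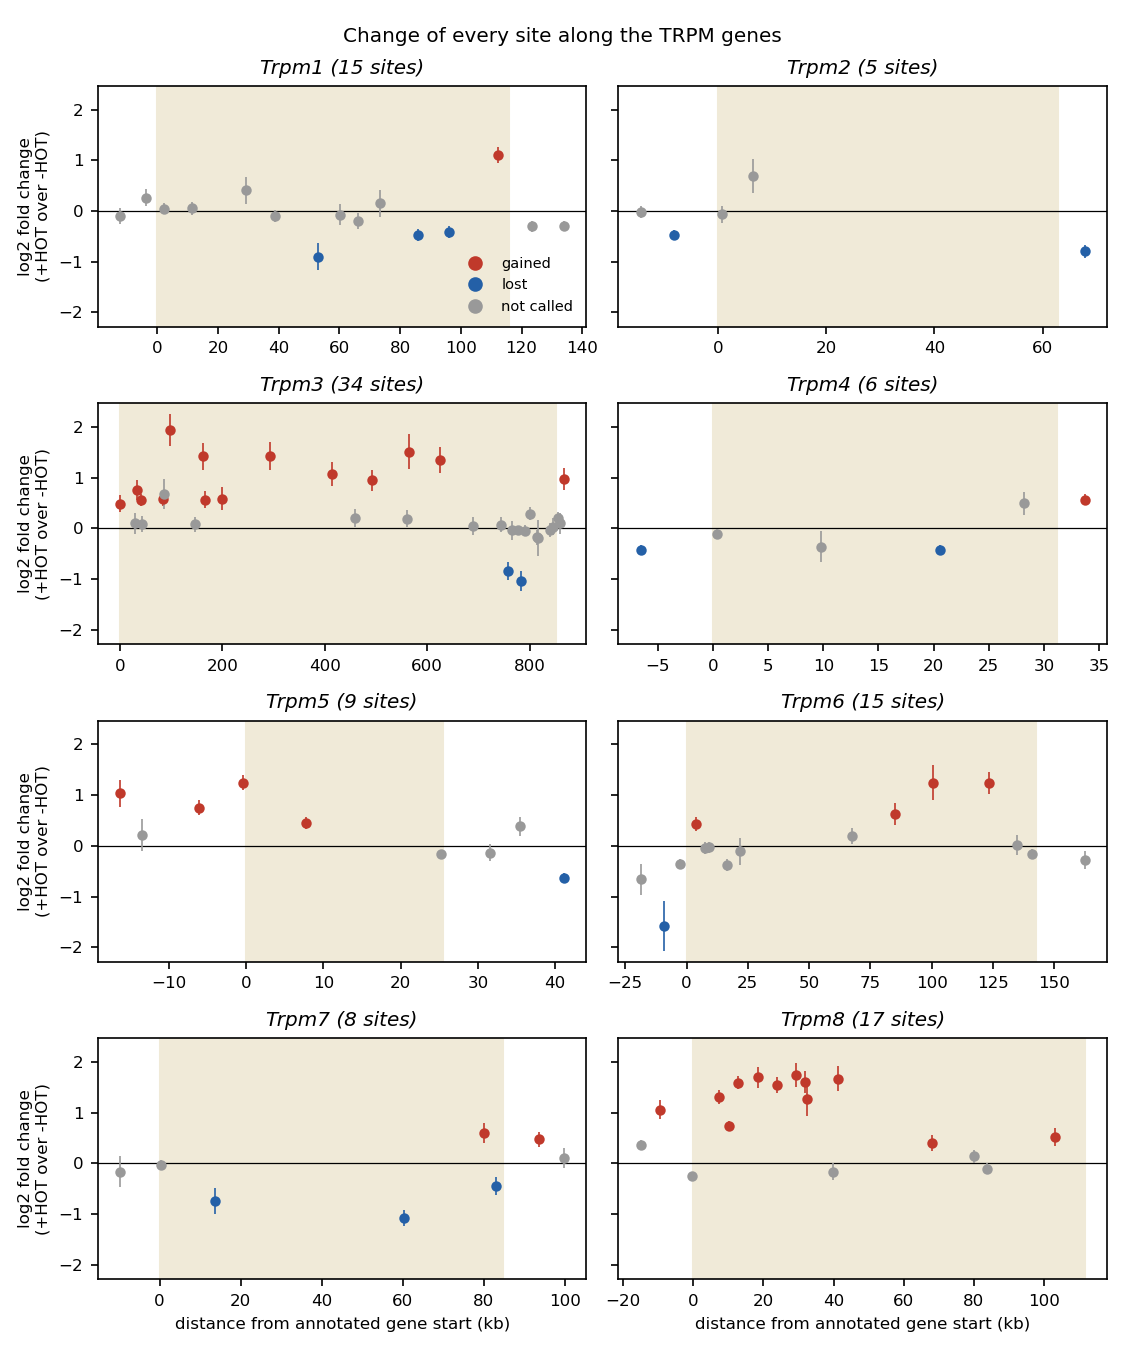
Log2 fold change of +HOT over -HOT at each TRPM site (vertical axis, with bars of 1 SE) against distance from the annotated gene start in kb, in the direction of transcription, with the gene body shaded and colours giving the call. Trpm8 shows a run of gained sites from 7.38 to 41.2 kb, and in Trpm3 10 of the 14 gained sites lie before the midpoint.

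Trpm8 had the highest count of gained sites for its number of members, with 12 of 17 gained and 0 lost, and a median log2 fold change of 1.06. Of all tested sites, 21.3% were gained and 14.2% lost. Among intragenic sites more than 3000 bp from a start these shares were 19.5% and 15.5%. From 7.38 to 41.2 kb into the annotated gene, 9 of 10 intronic sites were gained, with log2 fold changes from 0.73 to 1.74. Summed over these 10 sites, the +HOT libraries held 85.9 and 100.1 CPM and the -HOT libraries 39.4 and 47.3 CPM. The largest change was at the site 29.2 kb into the gene (chr1:90203261-90203641, centred 117 bp after an internal coding start), with 3.83 and 6.10 CPM in +HOT and 1.22 and 1.74 CPM in -HOT. Its log2 fold change was 1.74 (SE 0.23). The site 91 bp before the internal start shown above (chr1:90215236-90215558) held 3.44 and 4.92 CPM against 1.00 and 1.64 CPM, a log2 fold change of 1.67 (SE 0.25). The most open of the sites with a gain over 1.5 lay 12.7 kb into the gene and held 13.7 and 16.7 CPM against 4.81 and 5.26 CPM (1.59, SE 0.13). The sites 18.4 and 24.0 kb into the gene followed, the former with 4.91 and 7.09 CPM against 1.44 and 2.28 CPM (1.69, SE 0.21) and the latter with 8.50 and 10.0 CPM against 2.50 and 3.92 CPM (1.54, SE 0.16). Close together at 31.8 and 32.5 kb lay a site at 1.60 (SE 0.21) and the weakest one of the run at 1.26 (SE 0.33), where the -HOT libraries held 0.47 and 1.24 CPM and which was not called without +HOT replicate 2 (0.92) or -HOT replicate 1 (0.69). In each of the 9 gained sites of the run both +HOT libraries exceeded both -HOT libraries, as they did at 36.1% of all tested sites. The call itself favours such separation, so it adds no support to the gains. The exception in the run, the site just before that at 41.2 kb, held 4.28 and 5.06 CPM in +HOT and 4.97 and 5.46 CPM in -HOT (-0.16, SE 0.17).

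Replicate 2 exceeded replicate 1 in 9 of the 10 sites of the run in +HOT and in 9 of 10 in -HOT, against 48.4% and 49.8% of all tested sites. The labels do not say whether same-numbered libraries belong together, and the reported fit did not pair them. The part of this spread in the result was not tested. Before the gene start, a site 9.54 kb upstream that also lies near the start of Hjurp held 5.09 and 6.73 CPM in +HOT and 2.31 and 3.38 CPM in -HOT and was gained at 1.06 (SE 0.19). The site 15.0 kb upstream held 27.2 and 31.5 CPM against 21.7 and 24.1 CPM and was not called (0.36, SE 0.10), although it was called gained without +HOT replicate 1 (0.46) or -HOT replicate 2 (0.43). The gains did not extend to the strongest site of the locus, which lies at the annotated gene start and also at the start of Hjurp, encoding the chaperone of the centromeric histone CENP-A. It held 101.2 and 97.2 CPM in +HOT and 115.3 and 122.8 CPM in -HOT and was not called (-0.26, SE 0.09). Further into Trpm8 the changes were smaller, with 2 of the 4 sites from 68.0 to 103.1 kb gained at 0.40 (SE 0.16) and 0.52 (SE 0.18). These calls were made in 4 and 7 of 12 fits. The former was not called without any one library (0.34 to 0.45), and the latter not without +HOT replicate 2 (0.17) or -HOT replicate 1 (0.42). Outside the locus, 3 of 5 sites from 20 to 100 kb upstream and 3 of 8 from 20 to 100 kb downstream were gained, and 1 of the latter was lost. Among all tested sites 21.3% were gained and 14.2% lost, and among intergenic ones 28.4% and 9.28%.

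**Figure D4:**
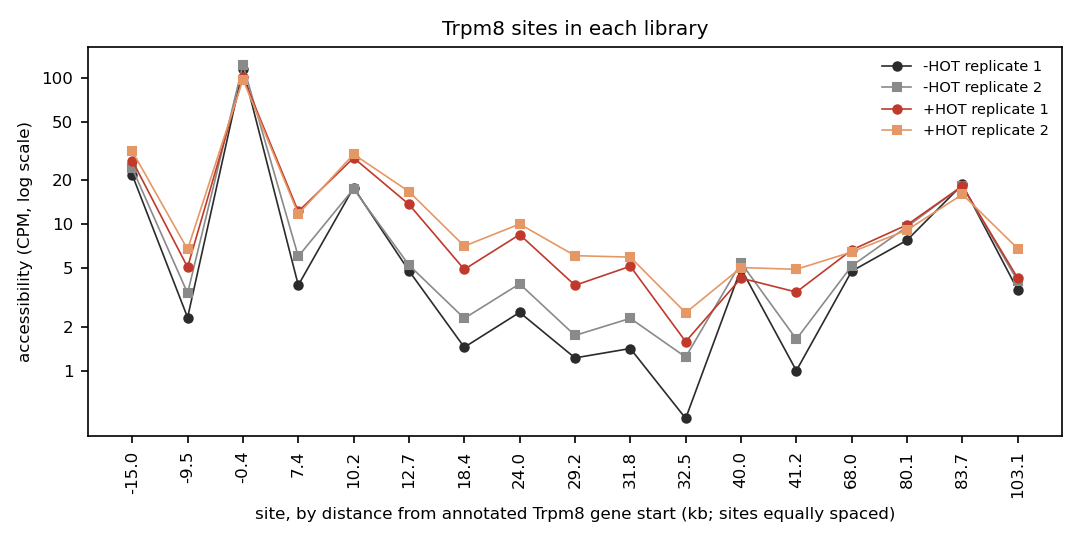
Accessibility of the 17 Trpm8 sites in each of the 4 libraries, in CPM on a log scale, ordered by distance from the annotated gene start in kb and equally spaced, with lines joining the sites of 1 library. The +HOT libraries lie above the -HOT libraries from 7.38 to 41.2 kb with the exception of the site just before 41.2 kb, and the order is reversed at the strong site beside the gene start, where both +HOT libraries lie below both -HOT libraries.

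The first sites of the Trpm8 run are shown for a motif they share. In the central 200 bases of each site a match to the core pattern of CTCF was searched on both strands. The lines give the windows 7.38 kb (chr1:90181517-90181716, plus strand) and 10.2 kb (chr1:90184319-90184518, minus strand) into Trpm8, with the match in capitals.
Trpm8 at 7.38 kb: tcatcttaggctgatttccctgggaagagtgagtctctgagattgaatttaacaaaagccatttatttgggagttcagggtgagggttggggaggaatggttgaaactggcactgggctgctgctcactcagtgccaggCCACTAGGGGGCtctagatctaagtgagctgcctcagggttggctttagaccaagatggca
Trpm8 at 10.2 kb: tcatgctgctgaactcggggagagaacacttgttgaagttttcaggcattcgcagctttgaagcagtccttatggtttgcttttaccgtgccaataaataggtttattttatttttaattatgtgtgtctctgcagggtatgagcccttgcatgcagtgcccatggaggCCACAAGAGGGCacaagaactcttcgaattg
The first window belongs to a site that held 12.2 and 11.7 CPM in +HOT and 3.83 and 6.03 CPM in -HOT (1.30, SE 0.14), and the second to one with 28.4 and 30.0 CPM against 17.8 and 17.4 CPM (0.73, SE 0.10). Over the family 7 of 109 windows held a match, or 6.42%, against 4.73% of all windows. Of the 5651 tested sites with a match, 41.2% were gained and 2.81% lost. Of the 7 members, 6 were gained, with 2 at Trpm8 and 1 each at Trpm3, Trpm5, Trpm6 and Trpm7, and the other, upstream of Trpm1, was not called (0.26, SE 0.17). The gained ones at Trpm3, Trpm6 and Trpm7 were called in 6, 7 and 8 of 12 fits. The pattern was singled out after the calls were seen, and nothing is read from the count. The AP-1 pattern TGANTCA was found in 15 of the 109 windows (13.8%, against 17.9% of all), of which 2 were gained, 2 lost and 11 not called. Of all tested sites with that pattern, 14.5% were gained and 16.9% lost. The NFY pattern CCAAT was found in 26 (23.9%, against 23.4%), of which 10 were gained, 3 lost and 13 not called, against 24.0% gained and 13.2% lost of all sites with it. The SP pattern GGGCGG was found in 7 (6.42%, against 8.51%), of which 0 were gained, 3 lost and 4 not called. Of all sites with the SP pattern, 7.74% were gained and 20.6% lost. The patterns TGACGTCA (CRE), GGAATG (TEAD), CACGTG (E-box), TGTGGT (RUNX) and CCGGAA (ETS) were searched too. In that order they were found in 0.92%, 9.17%, 2.75%, 11.9% and 3.67% of the members' windows. Of all windows they were found in 0.32%, 15.8%, 2.83%, 17.7% and 3.68%. Nothing is read from these counts and shares either. A match describes the sequence and says nothing of binding.

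At the 20 kb limit, values are given where the outermost member and the first site beyond lay at the same end of the gene. Upstream of Trpm8 the outermost site, 15.0 kb away, was at 0.36 and the first outside, 20.2 kb away, at 0.28, and neither was called. Downstream of Trpm3 the outermost site, 17.0 kb away, was gained at 0.97, whereas the first outside, 25.6 kb away, was at 0.15 and was not called. Upstream of Trpm2 the pair, 14.3 and 20.9 kb away, stood at -0.02 and -0.06, and downstream of Trpm7 the pair, 15.2 and 21.8 kb away, at 0.10 and -0.33, with none of these called. Downstream of Trpm1 the outermost site, 18.2 kb away, was at -0.30 and not called, and the first outside, 57.5 kb away, was gained at 0.91.

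Channels of the other TRP branches had a promoter site for 13 of 20 genes, of which 2 were gained and 2 were lost (5.08% and 23.4% over all genes), with a median log2 fold change of -0.23 (all genes with a promoter site, -0.22). The mucolipin gene Mcoln3 held 10.2 and 10.5 CPM in +HOT and 5.81 and 6.86 CPM in -HOT and was gained at 0.71. Pkd2l1, a polycystin-like channel of sour taste cells, was gained at 0.65. Both gained sites lay upstream of the start, centred at -1661 bp for Mcoln3 and -2366 bp for Pkd2l1. Trpv2 and Trpc2 were lost at -0.55 and -0.43. Trpa1, the irritant sensor, and Trpv3, Trpv5, Trpv6, Trpc4, Trpc5 and Trpc7 had no promoter site in the table.

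The partners of the TRPM channels were read in the same way. Of 15 genes of magnesium transport, 15 had a promoter site, 0 were gained and 2 were lost by edgeR, Nipa1 at -0.64 and Mmgt2 at -0.55, against 5.08% gained and 23.4% lost over all genes with a promoter site. At an unadjusted p under 0.05, 0 were higher and 6 lower, and DESeq2 called 0 gained and 2 lost. Of 10 annotated genes of taste transduction, in which Trpm5 acts downstream of the receptors, 7 had a site. The site of Plcb2, the phospholipase of that pathway, held 5.06 and 5.55 CPM in +HOT and 3.00 and 2.58 CPM in -HOT and was gained at 0.92. It was centred at -2336 bp, upstream of the start and not over it. Itpr3, the calcium release channel gene downstream of Plcb2, held 16.9 and 16.1 CPM against 37.0 and 34.9 CPM and was lost at -1.12. Gng13 and Tas1r1 were lost at -0.65 and -0.45, the Tas1r1 site being centred at -1052 bp. No promoter site was found for Gnat3, Tas1r2 and Tas1r3, and Calhm3 was not found in the annotation under that symbol.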

How the data were processed

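ATAC-seq was performed on 4 libraries, 2 per condition, from 1 fibroblast line. Per the authors, paired reads were trimmed (Trim_Galore) and mapped by BWA on mm9, followed by removal of duplicates, unpaired reads and blacklisted regions (Picard, SAMtools) and peak calling (MACS2). The sources used here give neither tool versions nor how peaks were joined across libraries. Counting within peaks leaves closed chromatin unmeasured. Of the -HOT libraries, 1 had fewer PCR cycles; which one was not used. The deposited values used were raw read counts per interval. The deposited scaled signal, fold changes, p-values, lists of changed sites and footprint scores were not used.

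Intervals were placed with GENCODE vM1 on NCBIM37 (mm9). Counts were tested with edgeR 4.0.16 (quasi-likelihood test, TMM, filterByExpr, Benjamini-Hochberg adjustment over 119603 sites) in R 4.3.3, after a test on simulated data. A promoter site lies within 3000 bp of a start. Replicates differed beyond sampling noise (chi-square per degree of freedom 2.38 and 2.22), so both were kept. Alternatives were library totals, TMM from distal sites, abundance-trended offsets, removal of the GC trend, DESeq2 1.42.0, no count filter, a replicate block and leaving out each library. For each gene the sites named were the one nearest to a start, that with the largest called change and the strongest, and for gene lists the 2 largest called changes per direction; others were named after their values were seen. The members and lists were chosen with earlier results of these data known.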

Additional observations from a re-analysis of the deposited data

How the results depend on the processing

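Of 38 gained and 14 lost TRPM sites, 24 and 5 kept their call in all alternative fits, among them 9 of the 12 gained Trpm8 sites, and 0 sites were called in opposite directions. DESeq2 gave 29 gained and 9 lost TRPM sites, and 15087 gained and 11960 lost of all sites. Gene bodies alone gave 9 lost sites. The members' median of 0.10 was 0.17 with library totals and 0.024 with TMM from distal sites, where the median of all sites was 0.07 and -0.08. Leaving out 1 library gave 29 to 36 gained and 11 to 14 lost TRPM sites and medians from 0.11 to 0.16. In 2 alternatives chosen after seeing the data, leaving out the Trpm8 sites gave 26 gained and 14 lost, and leaving out sites within 3000 bp of the start of another gene gave 36 and 11.

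No named site past the threshold changed direction. Changes near 0 turned sign. With library totals these were Trpm2 start 0.0060, Trpm3 strongest 0.030 and Trpm7 start 0.035, and with TMM from distal sites the Trpm1 site nearest to a start -0.032. With abundance-trended offsets they were Trpm3 strongest 0.15, Trpm4 start 0.087, Trpm5 strongest 0.033, Trpm6 strongest 0.040 and Trpm7 start 0.17, and after GC-trend removal Trpm2 start 0.058 and Trpm4 start 0.059. Leaving out 1 library gave -0.068 to 0.14 at that Trpm1 site, -0.23 to 0.12 at the Trpm2 start and -0.13 to 0.048 at the Trpm7 start. The lost Trpm2 site at 1810043G02Rik was not called after GC-trend removal (-0.31) or with abundance-trended offsets (-0.28), nor was the strongest Trpm4 site, with library totals also (-0.36). Conversely, the uncalled Trpm6 site upstream of the start was called lost with TMM from distal sites (-0.44), after GC-trend removal (-0.42) and without +HOT replicate 1 (-0.43). The strongest Trpm1 site was also called lost without that library (-0.42). The cause was not tested.

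In the gene lists the count of lost epithelial markers, 4, was 1 by DESeq2 and after GC-trend removal. Abundance-trended offsets gave 2 lost fibroblast markers, 1 lost magnesium gene, 0 gained melanocyte markers and 1 lost gene of the other TRP channels, which was also 1 with library totals and 5 with TMM from distal sites. GC-trend removal gave 1 gained magnesium gene, DESeq2 0 gained melanocyte markers and TMM from distal sites 1 lost melanocyte marker.

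The labels number the replicates 1 and 2 in each group, and deviations of same-numbered libraries correlated at 0.04 over sites. A correlation over all sites cannot decide whether the numbers pair the libraries, as a shared deviation at some sites could remain. The reported fit did not pair them. With the replicate block 39 TRPM sites were gained and 14 lost. At the weakest sites a library held as few as 7 reads, and 2 technical replicates of 1 line limit all values.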
